A study of Homo sapiens with 3 samples.

Results

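HA-TFE3 binding summits that lie close together were joined into runs, and 274 such runs held 8 or more summits found in both ChIP libraries. A summit is the single base at the top of a bound region. A summit of 1 library and a summit of the other formed a pair when they were mutually nearest and within 100 bp, giving 47396 paired summits on chromosomes 1 to 22 and X. Paired summits whose neighbours lay at most 12.5 kb apart were then stitched into 27433 groups, single summits included. The 274 runs made up 0.999% of these groups and held 2736 summits, or 5.77% of all paired summits. The runs were chosen by the measured summit positions, so their number, span and density follow from the choice and are descriptions with no test.

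The cells were HK-2, an established line of human kidney proximal tubule epithelium, made to express HA-TFE3 in a doxycycline-inducible way. The same line served for all 3 samples, 2 HA-TFE3 ChIP replicates precipitated through the HA tag and 1 input DNA library, which entered no comparison. Cells were grown for 24 h with or without doxycycline at 0.2 µg/ml, and the labels do not say which library had it. The binding seen is that of an inducible tagged protein, and whether the libraries came from separate cultures is not stated, so the spread between these 2 samples can be technical only.

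TFE3 belongs to the MiT/TFE family of helix-loop-helix leucine zipper factors, which bind E-box sequences and are known for switching on lysosomal, autophagy and stress genes when mTORC1 signalling at the lysosome is low. Enhancers are stretches of DNA that bind transcription factors and raise the activity of genes from a distance. Dense clusters of enhancers that carry very high levels of coactivators or of acetylated histone H3 are called super-enhancers and are known to lie near genes that define or strongly mark a cell's state. Super-enhancers are usually found by stitching neighbouring sites and ranking the stitched regions by signal. No histone mark or coactivator was analysed here, so the runs are stitched clusters of HA-TFE3 summits and are not shown to be enhancers.

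The authors' lists held 62322 summits in replicate 1 and 72692 in replicate 2, each with a score. These scores are the authors' values on a scale that no label or header states. Percentiles use only their order within a list. Sums, means, ratios and shares of scores take the values as they stand, and what these measure on an unstated scale is unknown. Scores ran from 1.31 to 270.2 in replicate 1 and from 1.32 to 253.2 in replicate 2. Below, a percentile places a score among all scores of the same list. Read counts are not part of the lists, so the depth behind a score is unknown.

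Genes are given with some of the largest runs as background. No gene annotation of hg19, the build of these files, was used, so these genes rest on general knowledge of the locus, were picked with earlier results known, and no distance to a gene was measured. The run in 20p13 lies at the locus of TRIB3, a pseudokinase induced by amino acid and endoplasmic reticulum stress, and RBCK1, a subunit of a linear ubiquitin ligase complex. The run in 10q22.1 lies at DDIT4, which encodes an inhibitor of mTORC1. The run in 10q24.31 lies at LZTS2 and SFXN3, the latter a mitochondrial carrier protein. The run in 17q25.3 lies at SOCS3, a feedback inhibitor of cytokine signalling, and that in 22q12.2 at LIF, a cytokine. The run in 14q23.1 lies at PRKCH, a protein kinase C gene.

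RefSeq promoters (GRCh38.p14) were matched by symbol for 14 of the 15 locus genes used as background, and the 250 bases before the start were searched on both strands for CACGTG and CATGTG, E-boxes that MiT/TFE factors are known to bind. CACGTG was present for 3 of the 14 genes, LZTS2, PER1 and MLX, against 6.34% of all 35116 promoters in the table. CATGTG was found for 0 of the 14 genes, against 9.42% of all promoters. A gene with several starts was counted once, so the gene and promoter figures are not on the same footing. The sequences of the 3 genes with CACGTG and of DDIT4, which had no match, are shown 5′ to 3′ on the strand of the gene, with CACGTG in capitals. LZTS2 and DDIT4 stand for large runs on chromosome 10, and PER1, a circadian clock repressor, and MLX, a bHLH leucine zipper partner of MondoA, for runs on chromosome 17.
LZTS2 (chromosome 10, plus strand): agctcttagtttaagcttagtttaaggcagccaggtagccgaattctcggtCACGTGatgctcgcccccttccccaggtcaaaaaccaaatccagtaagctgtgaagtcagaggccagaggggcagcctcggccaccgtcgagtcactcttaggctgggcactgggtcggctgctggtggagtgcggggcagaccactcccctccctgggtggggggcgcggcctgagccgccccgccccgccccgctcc
PER1 (chromosome 17, minus strand): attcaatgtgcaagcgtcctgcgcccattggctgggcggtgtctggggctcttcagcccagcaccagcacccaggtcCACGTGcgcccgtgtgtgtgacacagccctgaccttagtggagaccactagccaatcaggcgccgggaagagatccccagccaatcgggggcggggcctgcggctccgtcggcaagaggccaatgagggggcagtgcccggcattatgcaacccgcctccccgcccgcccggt
MLX (chromosome 17, plus strand): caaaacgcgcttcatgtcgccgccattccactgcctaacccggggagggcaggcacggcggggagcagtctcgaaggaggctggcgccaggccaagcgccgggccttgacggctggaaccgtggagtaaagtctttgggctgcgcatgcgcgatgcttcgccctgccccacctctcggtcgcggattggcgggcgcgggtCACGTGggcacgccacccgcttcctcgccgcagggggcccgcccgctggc
DDIT4 (chromosome 10, plus strand): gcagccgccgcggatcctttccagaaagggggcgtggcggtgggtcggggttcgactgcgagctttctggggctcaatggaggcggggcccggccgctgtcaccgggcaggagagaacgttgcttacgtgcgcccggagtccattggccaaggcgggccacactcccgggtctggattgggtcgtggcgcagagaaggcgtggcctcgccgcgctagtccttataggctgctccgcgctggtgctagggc
CACGTG began 199 bases before a start of LZTS2, 173 before that of PER1 and 50 before that of MLX. LZTS2 has several listed starts. The sequence shown is from the start with the match, and the others had none. The LZTS2 site also matched the longer form TCANGTGA, which 3.20% of all promoters held. The AP-1 site TGANTCA was found in 0 of the 14 genes' promoters and in 6.57% of all, and the GC box GGGCGG in 11 of the 14 and in 42.6% of all. The TEAD site GGAATG was found in 5 of the 14 and in 11.9% of all, and CCAAT in 8 and in 32.0%. The C/EBP site TTGCNNAA was found in 2 and in 9.05%, and the cyclic AMP response element TGACGTCA in 1 and in 1.65%. The share among the 14 genes was above that of all promoters for CACGTG and for several other motifs. A gene with several starts has more bases searched than a single promoter, and the 14 genes were picked with earlier results known. No conclusion is therefore drawn from these shares. Whether a summit lies on any of these bases was not determined, because the promoters and the summits are on different builds. A match is a description of the sequence and not a binding site.

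The stitched groups thinned out steadily with size. Single paired summits numbered 17389, groups of 2 to 7 numbered 9770, 161 groups held exactly 7 summits and 90 held exactly 8. Only 10 groups held 16 or more, and none held 18 to 20. The 6 largest therefore stood apart from the next, with 21 to 25 summits against 17. This gap depends on the pairing limit. At 50 bp the same 6 held 10 to 21 summits, while the run in 1p36.13 held 15. With summits within 1 kb of each other joined, the 6 held 16 to 21, against 15 in the run in 22q12.3. At the threshold the groups differed little in density, with a median of 0.256 summits per kb for groups of 7 and 0.267 for groups of 8. Their median spans were 27349 and 29967.5 bp. In replicate 1 the median score percentile was 61.2 in groups of 7 and 65.6 in groups of 8, and in replicate 2 it was 67.5 and 69.7.

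**Figure D1:**
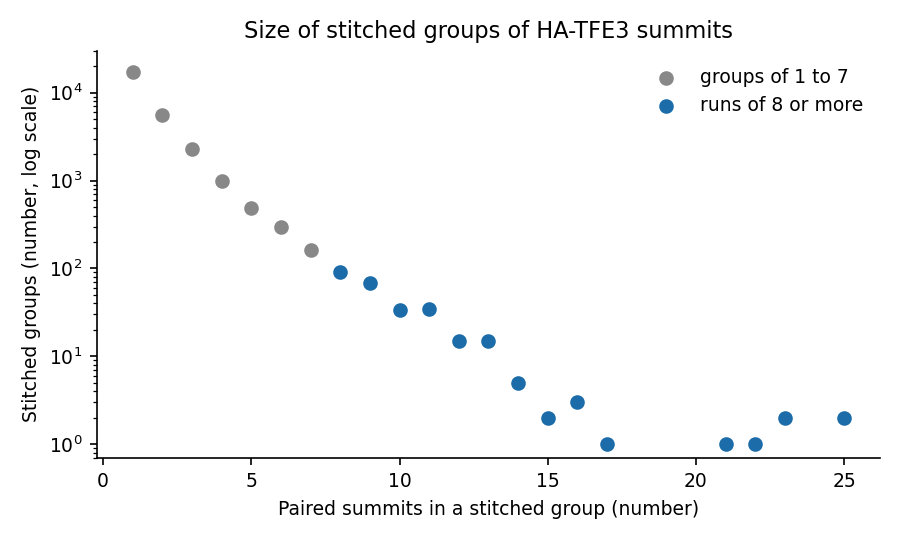
Number of stitched groups (log scale) against the number of paired summits they hold; blue points are the runs of 8 or more, and grey points are the smaller groups. Counts fall from 17389 single summits to 90 runs of 8. At the pairing limit of 100 bp used here, the 6 largest runs lie apart at 21 to 25 summits.

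A typical run was 36.3 kb long and held 9 paired summits. The spans ran from 13.1 to 93.0 kb, with the middle of the distribution between 28.0 and 45.1 kb (quartiles). Together the runs covered 10.5 Mb, or 0.347% of the chromosomes, at 260.0 paired summits per Mb against a genome mean of 15.6. The number of paired summits per kb ran from 0.128 to 0.612 with a median of 0.264.

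Distances between neighbouring summits inside runs covered the whole range that stitching allows. The 2462 distances between neighbours had a median of 3107 bp, with quartiles of 1232.75 and 6843.25 bp. Of these distances, 4.26% were at most 500 bp, 15.7% lay between 500 and 1000 bp and 36.4% were longer than 5000 bp. In groups of 2 to 7 the median distance was 3532 bp, and the share at most 1 kb was 20.8%, against 19.9% in runs. When summits within 1 kb of each other were joined into a single site, the runs held 2245 sites, and 154 of the 274 still had 8 or more while the others fell below 8. With 500 bp in place of 1 kb, 252 still had 8 or more. Whether close summits belong to a single bound region was not tested.

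The 6 largest runs are given with their hg19 coordinates. The run at chr20:304290-396843, in the unstained band 20p13 of the TRIB3 locus, held 25 paired summits over 92.6 kb. Its scores ran from 2.80 to 63.9 in replicate 1 and from 3.30 to 55.4 in replicate 2. The same summit, at base 328433, led both libraries. High scores also stood at bases 305177, 343296 and 382579, with 40.5, 40.2 and 35.2 in replicate 1 and 36.0, 42.8 and 43.0 in replicate 2. A neighbour of the first of these, base 306054, had 27.4 and 40.9. High scores of both libraries thus stood at several places along the run, with low ones between them.

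The run at chr10:102747277-102827772 in 10q24.31, the LZTS2 and SFXN3 locus, also held 25 paired summits, over 80.5 kb. Here 1 summit stood above the rest in both libraries, at base 102802633, with scores of 40.9 and 41.8. The summit at its first base had 2.79 in replicate 1 and 16.6 in replicate 2, which is 2.54 and 77.3 as percentiles. The lowest score of replicate 2 was 4.83, at base 102812245. Its median percentile was 53.6 in replicate 1 and 69.5 in replicate 2. The largest runs by number were thus not made of high-scoring summits throughout.

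The run at chr10:74004026-74097063 in 10q22.1, the DDIT4 locus, was the longest, at 93.0 kb, and had the highest summed score in each library, 430.9 and 503.6 over 23 summits. Replicate 1 was led by base 74057899, with 64.6 against 46.1 in replicate 2. Replicate 2 was led by base 74033519, with 70.4 against 49.1 in replicate 1. The lowest scores were 3.21 at base 74036682 in replicate 1 and 2.01 at base 74095405 in replicate 2. Base 74091917 scored 50.9 and 60.5. All 3 summits were at the 98.2 percentile or above in both libraries, and which of them came first differed between the libraries.

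The run at chr17:76310491-76397082 in 17q25.3, the SOCS3 locus, held 23 paired summits over 86.6 kb. Replicate 1 was led by base 76356328, with 33.6 against 29.8 in replicate 2, and replicate 2 by base 76310491, with 51.1 against 30.7 in replicate 1. The lowest scores were 2.43 at base 76339886 and 5.31 at base 76357023. Its span held 28 summits in replicate 1 and 33 in replicate 2, beside its 23 pairs. The run at chr14:61960123-62048275 in 14q23.1, the PRKCH locus, held 22 paired summits over 88.2 kb and lay in a band of 75% stain. Base 62029726 led replicate 1 with 37.4 and base 61992217 led replicate 2 with 54.0, and base 62014362 was lowest in both, with 3.21 and 3.69. It had 7 summits above the 90th percentile in replicate 1 and 8 in replicate 2, the most of the 10 largest runs. Another run, of 8 summits, ended 15088 bp before it. The run at chr22:30578611-30659067 in 22q12.2, the LIF locus, held 21 paired summits over 80.5 kb. Base 30631845 led both libraries, with 56.8 in replicate 1 and 46.7 in replicate 2. The lowest scores were 4.14 at base 30631002 and 4.12 at base 30609300.

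**Figure D2:**
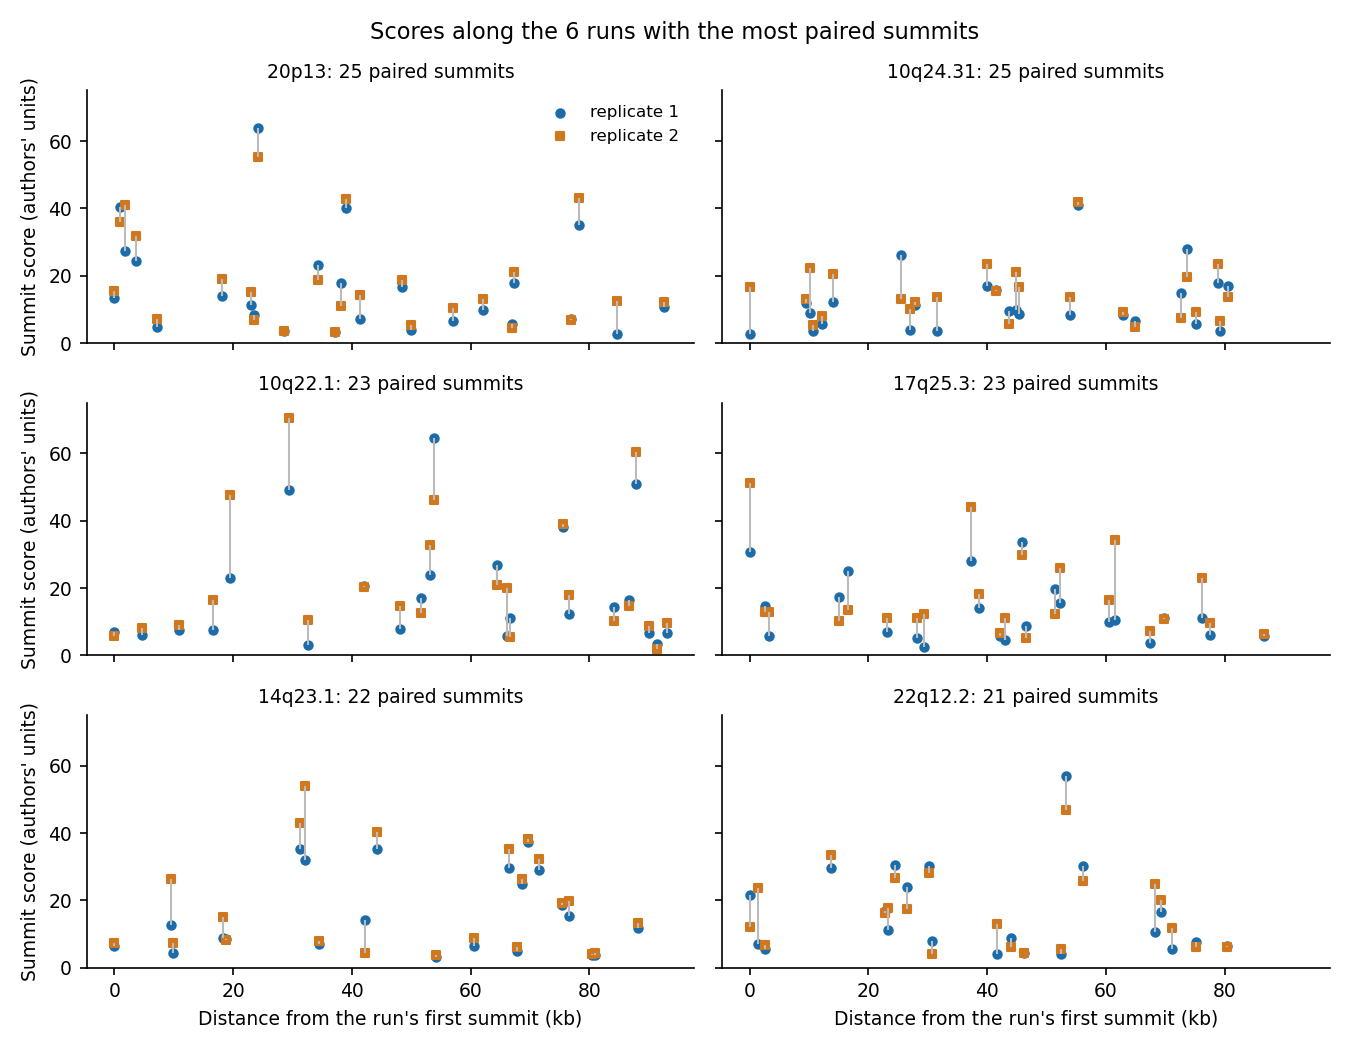
Score of each paired summit (authors' units) against its distance from the first summit of the run (kb) for the 6 runs with the most paired summits; blue circles are replicate 1, orange squares replicate 2, and grey lines join the 2 scores of a pair. High scores recur at the same places in both libraries, such as 63.9 and 55.4 at the leading summit of 20p13, among many low ones.

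The next 9 runs by number of summits held 14 to 17. Runs of 16 lay at chr1:16465480-16515718 in 1p36.13, the locus of the receptor tyrosine kinase gene EPHA2, at chr22:36746927-36813476 in 22q12.3, the locus of the nonmuscle myosin gene MYH9, and at chr17:43189400-43253854 in 17q21.31, the locus of HEXIM1 and HEXIM2, inhibitors of the elongation factor P-TEFb. The MYH9 run was led in both libraries by base 36779416, with 29.0 and 45.9, and its lowest scores were 2.43 at base 36792869 and 4.59 at base 36775858. The HEXIM1 run was led in both by base 43239148, with 33.5 and 41.3, and its lowest scores were 1.99 at base 43229518 and 5.20 at base 43205302. The 1p36.13 run had the smallest ratio of highest to lowest score among the 10 largest, 6.23 and 4.49, with scores from 4.83 to 30.1 in replicate 1 and from 6.05 to 27.2 in replicate 2. A run of 15 at chr17:40669685-40730564 in 17q21.2 lies at MLX, and a run of 14 at chr17:8042073-8095663 in 17p13.1 lies at PER1. The count of the PER1 run rests on the pairing: stitched from replicate 2 alone, it held 37 summits, more than the 24 to 34 that the 6 largest runs held in that library, and from replicate 1 alone it held 16. The MLX run held 17 and 18 summits in the libraries alone. In replicate 2 alone, the 17q21.31 run held 27 summits, and in replicate 1 alone 16. Further runs were at chr16:57829635-57876114 (15), chr20:52499803-52566030 (14) and chr1:205225439-205270475 (14), for which no locus gene is given. The 20q13.2 run held 23 summits in replicate 2 alone and 17 in replicate 1 alone.

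Number of summits and mean score did not go together among the runs. Across the 274 runs the number of paired summits and their mean score had a Spearman correlation of 0.03 in replicate 1 and 0.02 in replicate 2. The rule cuts the range of sizes, and 192 of the 274 runs held 8 to 10 summits. From single summits to runs the median score percentile did rise, as given below. The correlations describe runs that share libraries and carry no p-value. The run with the highest median score percentile in replicate 1 had only 8 summits, at chr19:54693578-54716009 in 19q13.42. Its median percentiles were 94.3 and 92.2, and its leading summit scored 72.9 and 79.7. A run of 13 summits at chr19:49112168-49164405 in 19q13.33 lies at DBP, a circadian output gene. It was led by different summits in the libraries, with highest scores of 74.6 and 56.6. Some runs rested on a single strong summit. At chr19:56135933-56173368, 69.3% of the summed score of replicate 1 and 52.2% of that of replicate 2 came from the leading summit, and the median percentile was 6.16 and 53.0.

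The densest runs were short. At chr12:104669535-104682599 in 12q23.3, 8 paired summits lay within 13.1 kb, and they made 4 sites when those within 1 kb were joined. At chr14:69245750-69262841 in 14q24.1, 9 lay within 17.1 kb and made 7 sites, and replicate 2 listed 16 summits there. At chr20:33891804-33915254 in 20q11.22, 12 lay within 23.5 kb and made 5 sites. At chr10:71198439-71221632 in 10q22.1, 12 lay within 23.2 kb and made 8 sites. The fifth, in 8q24.3, had 11 summits in 22.3 kb and 8 sites. Close multiple summits therefore made up more of the count in 12q23.3 and 20q11.22 than in the others. Stitched from replicate 2 alone, the 20q11.22 run held 26 summits and the 14q24.1 run 16, against 16 and 9 in replicate 1 alone.

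Summits inside runs had somewhat higher scores than other paired summits. The median score percentile was 65.2 inside runs and 58.7 outside in replicate 1, and 70.0 and 64.1 in replicate 2. The difference was 6.16 ± 0.350 percentile points (SD, n = 2 libraries), with 6.41 in replicate 1 and 5.91 in replicate 2. The scores belong to the same peaks as the positions that chose the runs, and 2 libraries allow no test over samples, so this is a description. The median percentile went from 55.8 for single summits to 61.2 in groups of 5 to 7 and 65.3 in runs of 8 to 10 in replicate 1, and was 64.9 in runs of 11 or more. In replicate 2 the same 4 values were 62.0, 66.9, 69.5 and 71.1.

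**Figure D3:**
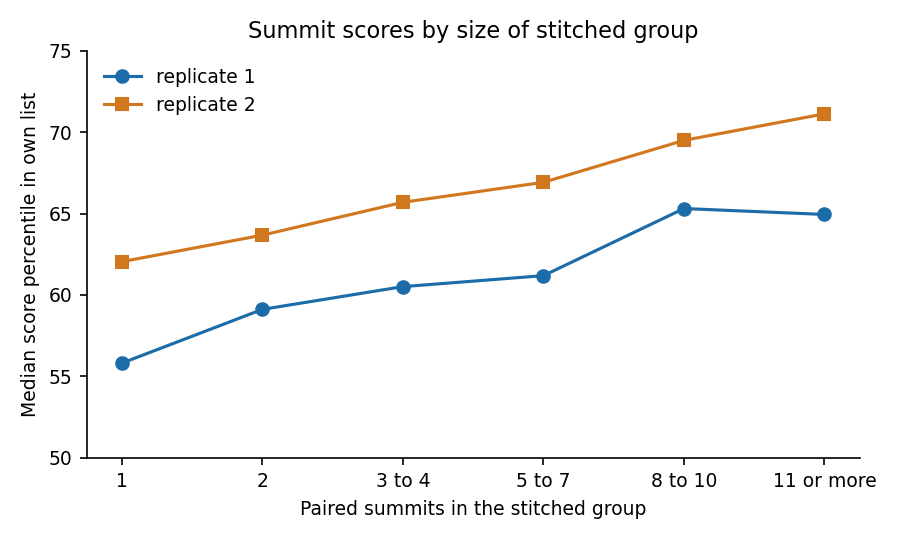
Median score percentile of paired summits in their own list against the number of paired summits in their stitched group; blue circles are replicate 1 and orange squares replicate 2, and the axis starts at 50. The medians go from 55.8 and 62.0 for single summits to 64.9 and 71.1 in runs of 11 or more.

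Very high scores were somewhat commoner in runs. Over all paired summits, 12.3% scored above the 90th percentile of the list of replicate 1 and 14.5% above that of replicate 2. Inside runs, 449 of 2736 did so in replicate 1, or 16.4% (95% exact binomial interval 15.04 to 17.9), and 544 in replicate 2, or 19.9% (18.4 to 21.4). Above the 99th percentile the shares inside runs were 1.90% and 2.34%, beside 1.23% and 1.45% of all paired summits. For paired summits outside runs the shares were 12.1% and 14.2% above the 90th percentile and 1.19% and 1.40% above the 99th. Neighbouring summits share their region, so these intervals cover counting error only. Low scores were about as common as elsewhere in replicate 1, where 5.74% of summits in runs and 5.87% of the others lay at or below the 10th percentile. In replicate 2 these shares were 3.51% and 4.10%. Of the 20 paired summits with the highest mean percentile, 1 lay in a run, or 5%, of the first 100, 7 did, or 7%, and of the first 1000, 89 did, or 8.9%. Runs held 5.77% of all paired summits.

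Scores differed widely within most runs. The highest score in a run was at the median 8.06 times the lowest in replicate 1 and 8.23 times in replicate 2, and at the least 2.18 and 2.10 times. The leading summit held a median of 23.3% of the summed score in replicate 1 and 24.0% in replicate 2. In 200 runs both libraries had at least 1 summit above the 90th percentile, and in 26 runs neither had any. The run at chr21:39649573-39699436 in 21q22.13 was one of the latter, with 11 paired summits and highest scores of 17.5 and 25.4.

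The libraries mostly put the high scores of a run at the same summits. In 154 of the 274 runs, or 56.2%, the same paired summit led both libraries. As a reference, 1 over the number of summits in a run averaged 10.5%. In 213 runs the leader of replicate 1 was first or second in replicate 2. The rank correlation of scores within a run had a median of 0.79 over the 274 runs and was above 0 in 273 of them. The exception was a run of 8 in 2q32.3, at -0.14. The leader was the first or last summit of the run in 53 runs of replicate 1, or 19.3%, and in 57 of replicate 2, or 20.8%. The reference of 10.5% counts for each of the 2 ends, so the ends did not stand out. Across runs the summed scores of the libraries had a Pearson r of 0.93 and a Spearman rho of 0.89, which share the number of summits. With the mean score in place of the sum the values were 0.85 and 0.82. These are correlations across runs or summits of the same 2 libraries and carry no p-value.

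Within the spans of the runs most summits of either library had a partner, as the rule requires at least 8 pairs. Replicate 1 had 3137 summits there, of which 87.2% were paired (95% exact binomial interval 86.0 to 88.4), against 75.5% elsewhere. Replicate 2 had 3373, of which 81.1% were paired (79.8 to 82.4), against 64.5% elsewhere. The distance between the 2 bases of a pair had a median of 26 bp both inside and outside runs. A run held a median of 1 unpaired summit in replicate 1 and 2 in replicate 2. The unpaired summits had low scores, with median percentiles of 23.8 and 22.9 inside runs and 24.8 and 27.4 elsewhere. In 17 runs every summit of both libraries was paired.

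Ranking by summed score, as is done for super-enhancers, gave a wider set than the rule of 8 summits. The summed scores of the 27433 groups were ordered, and the point where the curve rises faster than its overall slope was taken as the limit. It lay at 64.4 in replicate 1 and 72.0 in replicate 2, and 1615 and 1605 groups reached it. All 274 runs were among them in replicate 1 and 273 in replicate 2, but the median group past the limit had 5 summits, and 29 in each library were single summits. Among the 274 groups with the highest summed scores, 180 in replicate 1 and 182 in replicate 2 were runs. A summed score grows with the number of summits, by which the runs were chosen, so this overlap was largely set by the rule. The runs held 6.47% and 6.55% of all summed score on 5.77% of the summits. A sum of scores per summit is not a sum of reads over a region, so this ranking is no call of super-enhancers.

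Runs were unevenly spread over the chromosomes. Chromosome 1 had 42, chromosome 19 had 35 and chromosome 17 had 33. By length, chromosome 19 was the densest, with 0.592 runs per Mb (95% Poisson interval 0.412 to 0.823), followed by chromosome 17 with 0.406 (0.280 to 0.571). Chromosome 22 had 0.292, chromosome 20 had 0.254 and chromosome 1 had 0.169, beside 0.0902 over all chromosomes. The intervals of chromosomes 19 and 17 overlapped. With only the upper-scoring part of either list (scores over its median), which left 31 runs, the order changed: chromosome 20 had 6.22 times the genome's density, 17 had 4.83, 10 had 4.34, 19 had 3.31 and 22 had 0, where all summits gave 2.81, 4.50, 1.64, 6.56 and 3.24. The 31 runs leave few per chromosome and no interval was computed for them, so whether the change of order exceeds counting error was not tested. With all summits, chromosomes 13 and 18 had no run, with upper bounds of 0.0320 and 0.0472 per Mb in 95% Poisson intervals. Chromosomes 21 and X had 1 each. The run of chromosome X, at chrX:153597349-153639831 in Xq28, held 11 paired summits. All paired summits were also densest on chromosomes 19 and 17, at 40.1 and 33.9 per Mb against 15.6 over the genome, and the part of this density in the number of runs was not tested. As a share of the paired summits on a chromosome, those in runs made up 14.4% on chromosome 19, 13.5% on 22, 12.1% on 17 and 11.2% on 20, against 1.88% on chromosome 2, 1.40% on 5 and 0.729% on 4.

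**Figure D4:**
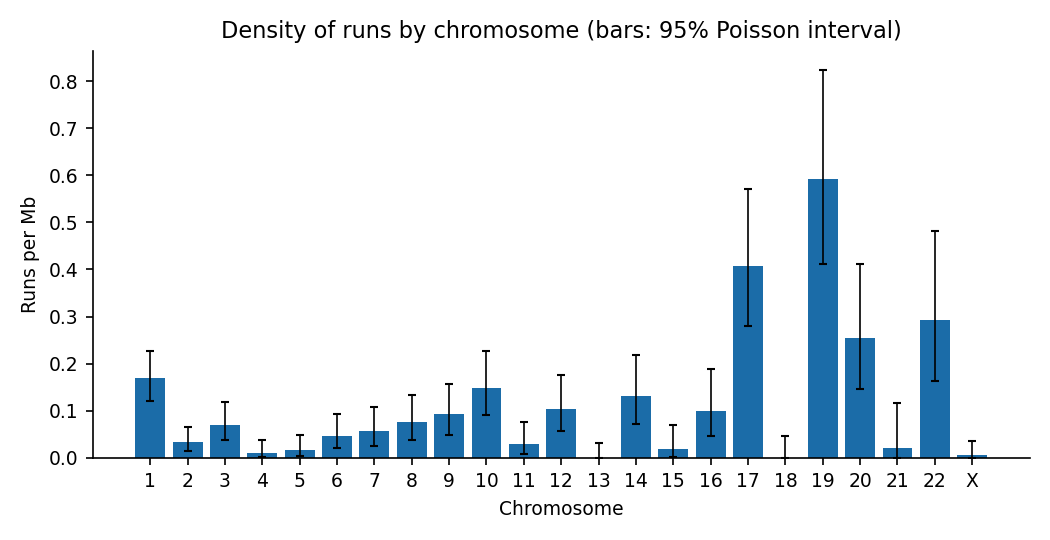
Runs per Mb of each chromosome, with 95% exact Poisson intervals that cover counting error only. Chromosome 19 has the highest value, 0.592, then 17 with 0.406, while chromosomes 13 and 18 have 0.

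Light cytogenetic bands held most runs, and most paired summits as well. Bands are the light and dark stretches seen in Giemsa-stained chromosomes, and light ones are known to be rich in genes. Of the 274 runs, 176 had their middle in an unstained band, or 64.2% (95% exact binomial interval 58.2 to 69.9), and 53 in a band of 25% stain, or 19.3% (14.8 to 24.5). Among groups of 2 to 7 these shares were 58.6% and 12.0%, and among all paired summits 57.5% and 11.9%. The interval for unstained bands includes the share of groups of 2 to 7. The length of the bands was 42.4% and 7.15% of the chromosomes. Bands of 100% stain held 9 runs, or 3.28%, against 6.46% of groups of 2 to 7 and 7.51% of all paired summits. No run lay in a centromeric band, in variable heterochromatin or in a stalk, which held 0.382%, 0.268% and 0% of all paired summits. The upper bound of the 95% interval was 1.34% of runs for each, so these absences do not set runs apart. The band 19p13.3 held 7 runs, 17q21.2 and 19q13.32 held 6 each, and 1q21.3, 9q34.11, 19q13.42 and 1q22 held 5 each.

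Some runs lay near one another, but distances between smaller groups were not computed, so this is not shown to be particular to runs. The median distance from a run to the next on its chromosome was 1542540 bp, but 29 of the 253 neighbouring pairs were at most 100 kb apart and 102 at most 1000 kb. The closest lay 13808 bp apart in 14q32.32, just beyond the stitching distance. The fullest 2 Mb window held 7 runs with 63 paired summits, at chr1:154391059-156100210 in 1q21.3 to 1q22. Windows on chromosome 10 in 10q24.31 to 10q24.32 and on chromosome 17 in 17q21.2 held 5 runs each, with 62 and 54 paired summits.

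The surroundings of runs were rich in paired summits far beyond the stitching distance. Between 12.5 and 25 kb from the ends of a run the density was 69.3 per Mb, at 50 to 100 kb it was 55.0 and at 500 to 1000 kb it was 36.2, against 15.6 over the genome. These were 4.44, 3.53 and 2.32 times the genome mean. Groups of 2 to 7 had 41.0, 36.2 and 25.8 per Mb at the same distances, and single summits 26.3, 26.0 and 21.3. Larger groups thus lay in denser surroundings at each distance measured. Even so, 64 of the 274 runs had no paired summit between 12.5 and 25 kb from either end. Flanks of neighbouring groups overlap, and stretches that cannot be mapped were not removed from the length, so the genome mean is a low reference.

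**Figure D5:**
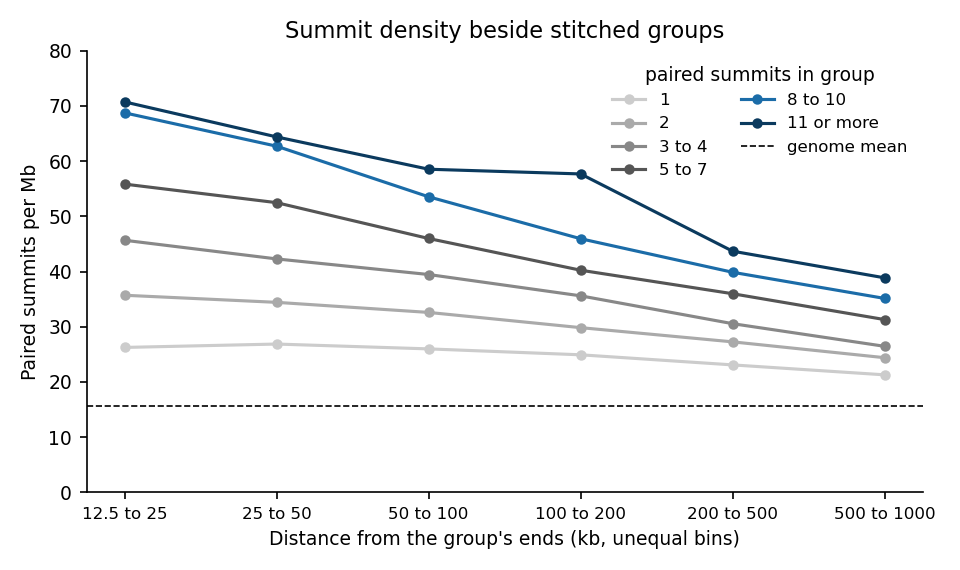
Paired summits per Mb in 6 distance bins of unequal width from the ends of a stitched group, for groups of increasing size (grey to dark blue); the dashed line is the genome mean of 15.6. Runs of 8 or more lie above the smaller groups in each bin, and all groups lie above the dashed line out to 1000 kb.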

How the data were processed

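ChIP-seq of HA-TFE3 in HK-2 cells was analysed from the deposited lists of 1 bp summits, 1 list for each of the 2 ChIP replicates, with the authors' score for each summit. The build is hg19, per the submitters' processing notes, and positions count from 1. No label or header names the aligner, the peak caller, its thresholds or the use of the input. Whether peaks were called per library is not stated. Both steps set how many summits are listed and so how many runs form.

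Pairing, stitching and the minimum of 8 were applied as described in the report, with the position of a pair taken as the mean of its bases. Cytogenetic bands and chromosome lengths came from the hg19 table of circlize 0.4.16. Intervals are exact (Clopper-Pearson or Poisson) at 95%. Python 3.11.15, NumPy 2.4.6, pandas 2.3.3, SciPy 1.17.1 and matplotlib 3.10.9 were used. The steps were tested on simulated lists with planted runs. No test between groups was run. The rule named the 15 runs with the most paired summits, the 5 longest, the 5 with the highest summed score, the 5 densest, and the highest and lowest summits of the 10 largest. Of these, 1 of the 15 largest is not reported here. Runs in 19q13.33, 19q13.42, 21q22.13, 2q32.3, 14q32.32 and Xq28, and further summits inside the largest runs, were singled out after their values were seen. Members, lists and locus genes were chosen with earlier results of these data known, and locus genes come from general knowledge, checked against RefSeq only for symbol and chromosome. The planned analyses of hg19 sequence, transcription starts and gene lists were not run, because the reference used here is GRCh38.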

Additional observations from a re-analysis of the deposited data

How the results depend on the processing

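The number of runs, 274, depends on the rule. It was 110 with a pairing limit of 50 bp, 18 and 878 with stitching at 5000 and 25000 bp, 735 and 116 with at least 6 and 10 summits, 31 with summits above the median score, and 0 with the 10000 highest-scoring summits. The share of paired summits in runs, 5.77%, was 2.79%, 0.338%, 22.1%, 11.9%, 2.96%, 1.15% and 0% under the same settings in turn. With each library stitched alone, the number of runs ranged from 669 to 955 and the share from 11.4% to 14.7%, and these runs overlapped all 274. A limit of 200 bp and counting summits within 500 bp once left both values within their limits.

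Summits in runs kept the higher median percentile under each setting that gave runs. The difference in replicate 1 (6.41 points) was 5.45 with pairing at 50 bp, 5.66 at 200 bp, 10.8 and 5.87 with stitching at 5000 and 25000 bp, 4.84 with at least 6 summits, 7.05 with summits within 500 bp counted once, 4.22 above the median score and 4.60 without replicate 2. In replicate 2 (5.91 points) it was 4.88 at 200 bp, 9.14 and 5.38 with stitching at 5000 and 25000 bp, 4.88 and 6.26 with at least 6 and 10 summits, 6.77 with summits counted once, 2.65 above the median score and 5.43 without replicate 1. The share of runs in unstained bands (64.2%) was 63.6% with pairing at 50 bp, 65.4% at 200 bp, 66.7% with stitching at 5000 bp, 63.7% and 73.3% with at least 6 and 10 summits, 65.1% with summits counted once, 61.3% above the median score, and 65.3% to 66.1% in single libraries. The limit for these values was the SD between libraries, which is narrow, and the cause of these moves was not tested. The other values include the summit counts of named runs, and these counts cannot change with at least 6 summits. With at least 10 they cannot change for runs that hold 10 or more. Among all other values, 171 stayed within their limit, partly for this reason, 125 moved and 3 changed direction. The last were densities of runs relative to the genome: chromosome 10 went from 1.64 to between 0.962 (without replicate 1) and 1.37 (without replicate 2), chromosome 20 from 2.81 to 0 with stitching at 5000 bp, and chromosome 22 from 3.24 to 0 with summits above the median score. The values of 0 for chromosomes 20 and 22 came from settings that left only 18 and 31 runs in all. The alternatives for shared leaders and for flanking density were chosen after seeing the data. Alternatives that need hg19 sequence or gene starts were not run. No paired analysis was possible because the 2 libraries belong to a single group. Depth could not be assessed from the lists.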
